A study of Bos taurus with 6 samples.

Results

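The mature bovine miRNAs named miR-143, miR-145, miR-199 or miR-214, with any letter or arm suffix, were described in granulosa cells. Membership was set by name, and the names were picked with earlier results of these data known. They were 7 of the 755 mature names in the files: bta-miR-143, bta-miR-145, bta-miR-199a-5p, bta-miR-199a-3p, bta-miR-199b, bta-miR-199c and bta-miR-214. All 7 were among the 353 names that met the study's detection rule, 1 or more reads in 2 or more libraries of a group. The study sequenced the small RNA of granulosa cells, the steroid-producing cells of the follicle's inner wall, from synchronized Simmental heifers slaughtered on day 19 of the estrous cycle. It had 3 libraries of preovulatory dominant follicles, the large follicles expected to ovulate, and 3 of the smaller anovulatory subordinate follicles of the same animals. RNA was pooled before library preparation, and the dominant follicles were far fewer than the subordinate ones, so that the number of follicles behind a library can differ between the groups. No treatment separated the groups, the only difference in the labels being the follicle type.

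MiR-143 and miR-145 are made from neighbouring hairpins and are best known from smooth muscle cells and fibroblasts, where they help to hold the contractile state. MiR-199a and miR-214 are likewise known from mesenchymal cells, and a hairpin of miR-199a and that of miR-214 are transcribed together from the strand opposite a dynamin gene. In the follicle, cells of this kind lie in the theca, the vascularized layer outside the basement membrane, whose outer part holds contractile cells. A hairpin is cut into a 5p and a 3p strand, and both can be loaded into the silencing complex. The strands named without an arm are the 5p strand for bta-miR-199b and the 3p strand for bta-miR-214. Granulosa cells were separated from follicular fluid by centrifugation and the theca was scraped off separately. No miRNA was taken as a defining marker of either cell type, so the miRNA counts gave no check of the label. The paper checked purity by PCR of mRNA. It reported strong FSHR, its granulosa cell marker, and very little CYP17A1, its theca marker, in all samples. Bta-miR-202, known from the gonads, had between 3484 and 13664 reads in every library.

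The files list the 7 names in 13 rows, as each name is repeated for every hairpin it can come from. All 7 hairpins were found in the RefSeq gene table of the ARS-UCD2.0 assembly, which is not the build of the files and was used for gene names only. MIR143 and MIR145 are neighbouring miRNA genes inside the same uncharacterized gene, LOC132345768. MIR199A-1 and MIR214 both lie within the dynamin gene DNM3 and within another uncharacterized gene, LOC132342463. MIR199A-2 lies within DNM2 and MIR199B within DNM1, also dynamin genes. MIR199C lies apart from this pattern, within the nucleoporin gene NUP88. 

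On shared hairpins bta-miR-199c could not be told from bta-miR-199a-3p. On the hairpins of miR-199a and miR-199b both names carried the same 273, 227 and 232 reads in dominant and 299, 307 and 408 reads in subordinate follicles, in replicates 1 to 3. On its own hairpin bta-miR-199c had 10, 7 and 10 reads in dominant and 11, 18 and 16 in subordinate follicles. The hairpins of the DNM2, DNM3 and DNM1 loci could not be told apart for the 3p strand either, because bta-miR-199a-3p is listed under all 3 with equal counts. The 7 names thus held 6 separate measurements, and the largest row of each name was used below.

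With 1 value per name, the libraries held 190385 to 311842 reads for the dominant and 306932 to 364125 for the subordinate group. Normalized levels are counts scaled to a common library size (CPM) with edgeR's TMM factors, at which 3 reads equal between 8.86 and 13.9 CPM. Every member lay above that level in every library. Subordinate replicate 3 stood apart from the other libraries of its group. Bta-miR-100 was 5.69-fold and bta-miR-99a-5p 3.03-fold higher there than the mean of the other subordinate libraries in CPM. Among the members the same ratio was 4.56 for bta-miR-199b and 2.78 for bta-miR-199a-5p, and of 194 miRNAs averaging 10 or more subordinate reads, 4 and 10 respectively had a larger one. It was 1.16 for bta-miR-143 and 1.13 for bta-miR-145. Values without this library are given beside the results that rest on it most.

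The members other than bta-miR-199c took 3.04, 2.0 and 1.83% of all reads in the dominant libraries, with 95% Wilson intervals of 2.97 to 3.11, 1.94 to 2.06 and 1.78 to 1.88%. In the subordinate libraries they took 2.16, 3.04 and 3.19%, with intervals of 2.11 to 2.21, 2.98 to 3.1 and 3.12 to 3.25%. These intervals cover counting error only. The shares of the follicle types overlapped. Bta-miR-143 alone made up between 86.3 and 92.1% of the members' reads in the 6 libraries, so the summed share is in effect its level.

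Bta-miR-143 was by far the most abundant member. It had 7171, 3282 and 5199 reads in dominant and 6433, 10191 and 8569 in subordinate follicles. By read count it took places 10 to 16 of the 755 names in the dominant and places 7 to 13 in the subordinate libraries. Its level was 19030 ± 5480 CPM (SD, n = 3) in dominant and 27400 ± 7400 CPM (SD, n = 3) in subordinate follicles. Dominant replicate 1, at 25300 CPM, lay above subordinate replicate 1, at 19000 CPM, so the groups overlapped. The log2 fold change of dominant over subordinate follicles was -0.53 (standard error 0.261; edgeR quasi-likelihood test, adjusted p = 0.2), short of the threshold. With subordinate replicate 1 left out it was -0.73 (adjusted p = 0.0756 from edgeR), and without dominant replicate 1 it was -0.79 (adjusted p = 0.0986 from edgeR), both below the study's minimum fold change of 1 on the log2 scale. It was smaller, at -0.35 (adjusted p = 0.491 from edgeR), without dominant replicate 2 and at -0.37 (adjusted p = 0.401 from edgeR) without subordinate replicate 2.

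Bta-miR-145, the partner of bta-miR-143, was counted with 278, 161 and 146 reads in dominant and 193, 342 and 269 in subordinate follicles. The groups overlapped widely, at 731 ± 258 and 875 ± 276 CPM (SD, n = 3 each), and the log2 fold change was -0.26 (standard error 0.333; edgeR quasi-likelihood test, adjusted p = 0.593). Bta-miR-143 exceeded bta-miR-145 between 20.3-fold and 35.4-fold within a library. The log2 ratio was 4.68, 4.34 and 5.14 in dominant and 5.05, 4.89 and 4.99 in subordinate follicles. The subordinate libraries differed little in this ratio (SD 0.0798), while the dominant ones spread over a wider range (SD 0.403) that enclosed them. A difference between the follicle types was not detectable (exact permutation test, two-sided, p = 0.4, adjusted p = 0.4 over 6 ratios).

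Bta-miR-199a-3p was the most abundant member of the miR-199 group, at 918 ± 162 CPM (SD, n = 3) in dominant and 1105 ± 295 CPM (SD, n = 3) in subordinate follicles. The read counts are those given above, and the ranges overlapped. The log2 fold change was -0.27 (standard error 0.248; edgeR quasi-likelihood test, adjusted p = 0.46), close to the median of -0.20 over all 353 miRNAs. Without subordinate replicate 3 it was -0.03 (adjusted p = 0.917 from edgeR). 

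Bta-miR-199a-5p, the other strand of the same hairpins, had 150, 111 and 107 reads in dominant and 173, 183 and 434 in subordinate follicles. The paper described both strands of miR-199a as absent from subordinate follicles, which the deposited counts do not show. The reason for this difference was not tested. The counts of the 2 hairpin rows of bta-miR-199a-5p were the same or differed by at most 2 reads. A single library, subordinate replicate 3, held by far its highest value, 1532 CPM, against 511 and 592 CPM in the other subordinate and 341 to 529 CPM in the dominant libraries. Subordinate replicate 1 lay within the range of the dominant libraries. The log2 fold change was -0.93 (standard error 0.422; edgeR quasi-likelihood test, adjusted p = 0.162) with all libraries and -0.26 (adjusted p = 0.511 from edgeR) without subordinate replicate 3. Leaving out subordinate replicate 1 instead brought it to -1.20 (adjusted p = 0.0838 from edgeR), which passed the thresholds.

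Bta-miR-199b, the 5p strand of the hairpin in DNM1, was the rarest member on average, with 11, 8 and 7 reads in dominant and 14, 14 and 56 in subordinate follicles. All subordinate libraries lay above all dominant ones in CPM, but only narrowly so for replicates 1 and 2, at 41.3 and 45.3 CPM against 22.3 to 38.8 CPM. The log2 fold change of -1.52 (standard error 0.671; edgeR quasi-likelihood test, adjusted p = 0.15) became -0.41 (adjusted p = 0.575 from edgeR) without subordinate replicate 3. Without subordinate replicate 1 it was -1.88 (adjusted p = 0.0838 from edgeR) and passed the thresholds.

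Bta-miR-214 was the only member called with all libraries, and it was lower in dominant follicles. Bta-miR-214 had 13, 14 and 14 reads in dominant and 35, 30 and 44 reads in subordinate follicles. Every subordinate library lay above every dominant one, at 97.0 to 155 CPM against 44.6 to 64.9 CPM. The means were 51.8 ± 11.4 and 119 ± 32.0 CPM (SD, n = 3 each), and the log2 fold change was -1.20 (standard error 0.352; edgeR quasi-likelihood test, adjusted p = 0.0417). In a pool of cells, fewer cells that carry a miRNA and fewer copies per cell cannot be told apart. The call lay near the limit of fold and depth. Without subordinate replicate 3 the log2 fold change was -0.96 (adjusted p = 0.114 from edgeR) and without dominant replicate 1 it was -1.12 (adjusted p = 0.132 from edgeR), and neither passed. Scaling by total count alone gave -0.99 (adjusted p = 0.107 from edgeR).

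**Figure D1:**
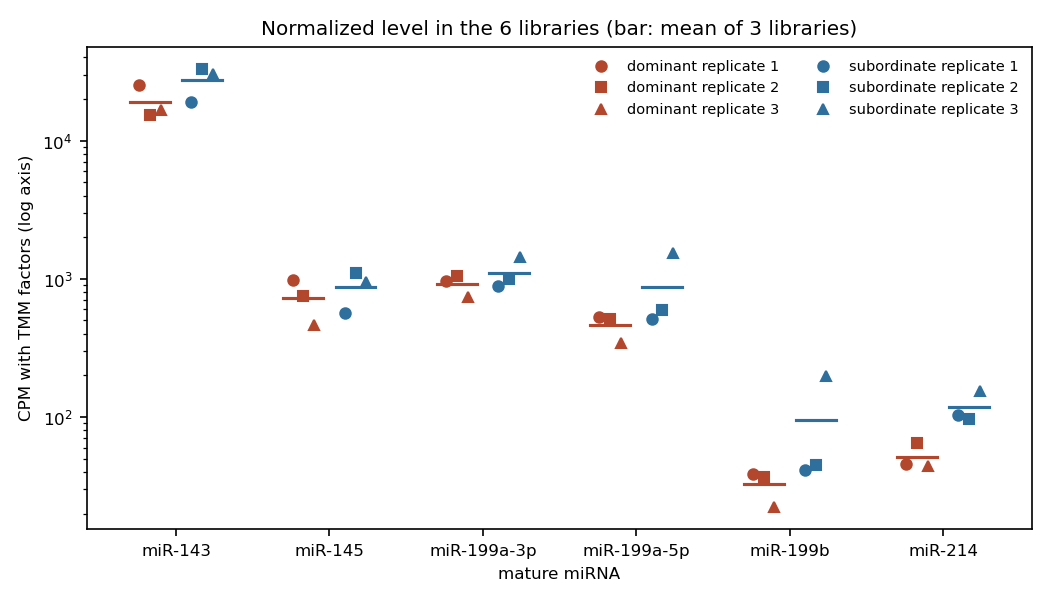
Levels of the 6 separately measured members in CPM with TMM factors on a log axis, 1 point per library, dominant follicles in red and subordinate in blue, with the mean of 3 libraries as a bar. Only bta-miR-214 and bta-miR-199b have all subordinate points above all dominant points, and the blue triangle of subordinate replicate 3 stands far above its group for bta-miR-199a-5p (1532 CPM) and bta-miR-199b (198 CPM).

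As a group, 1 of the 7 members passed the study's thresholds, a log2 fold change of 1 or more in size with a p-value and a false discovery rate from edgeR of at most 0.05 and 0.1. Of all 353 miRNAs tested, 76 passed (21.5%), 42 higher and 34 lower in dominant follicles, so 9.63% were called lower. With total-count scaling 47 were higher and 23 lower. The members' log2 fold changes were below 0 for all 7 names, as they were for 190 of the 353 miRNAs (53.8%). Their median over the 7 names was -0.53, beside -0.20 over all miRNAs tested. It counts the value of bta-miR-199a-3p again as bta-miR-199c, which pulls it up. With bta-miR-199c left out, 1 of 6 members was called. Scaling by total count moved that overall median to -0.01 and the members to between -1.30 and -0.01. Groups that did not overlap, with the dominant one lower, were found for 2 members, bta-miR-199b and bta-miR-214, and for 18.4% of all miRNAs. The number of members called was 0 without subordinate replicate 3, 0 without dominant replicate 1 and 3 without subordinate replicate 1. With so few members these counts do not set the group apart from the rest.

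**Figure D2:**
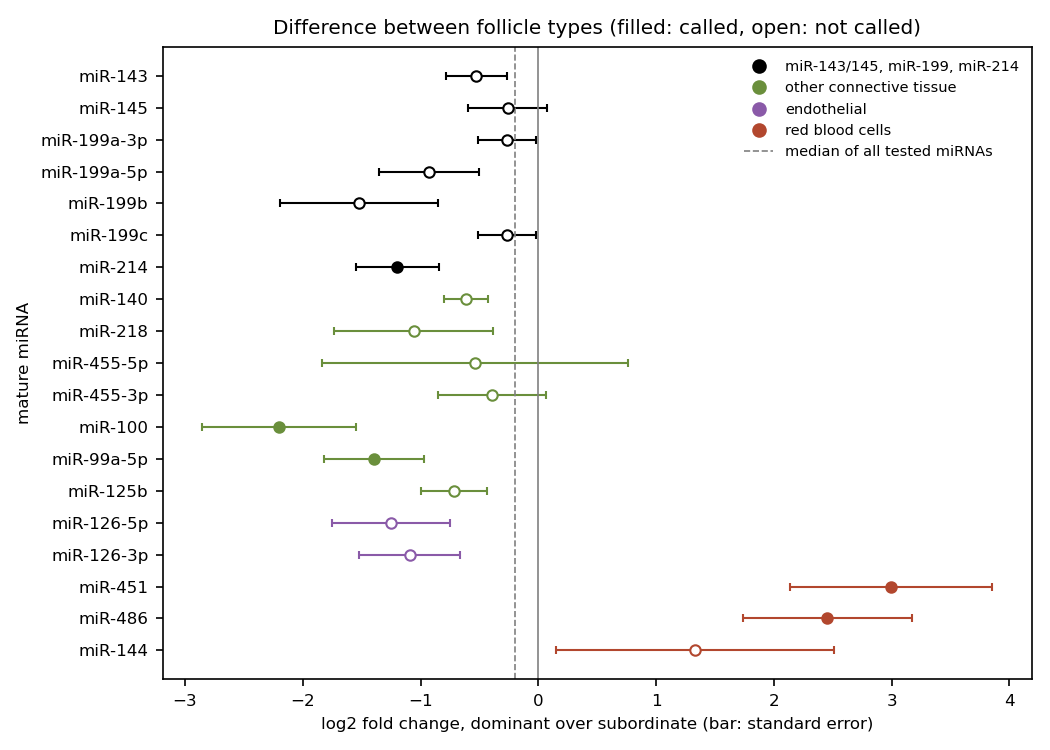
Log2 fold change of dominant over subordinate follicles with its standard error as a bar, for the 7 members and for miRNAs of other connective tissue, of endothelium and of red blood cells; filled points passed the thresholds, and the dashed line is the median of -0.20 over 353 miRNAs. All 7 members lie left of 0 with only bta-miR-214 filled, the point of bta-miR-199c repeating that of bta-miR-199a-3p. The red blood cell miRNAs lie on the opposite side, bta-miR-144 with at most 5 reads in a library.

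Within the group of miR-199 and miR-214, ratios between members were taken in each library. Bta-miR-199a-3p exceeded bta-miR-214 by a log2 ratio of 4.29, 3.93 and 3.96 in the dominant and 3.06, 3.31 and 3.18 in the subordinate group. All dominant libraries lay above all subordinate ones, a mean difference of 0.87 (exact permutation test, two-sided, p = 0.1, adjusted p = 0.2). With 3 libraries against 3 no smaller p than 0.1 is possible, so the ratio could not pass a threshold of 0.05. This ratio does not depend on the normalization. Leaving out 1 library at a time gave differences from 0.76 to 0.94. Their sign could not change, because the groups did not overlap. Counting error alone would give an SD of 0.327 between libraries, because bta-miR-214 had so few reads, and the observed SD over the 6 libraries was 0.501. 

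The 3p strand of miR-199a outnumbered the 5p strand in 5 of the 6 libraries. The 3p strand had 1.82, 2.05 and 2.17 reads for each read of the 5p strand in dominant follicles, and 1.73 and 1.68 in subordinate replicates 1 and 2. In subordinate replicate 3 it had 0.94, the only library in which the 5p strand was the more abundant. Counting bta-miR-199b together with bta-miR-199a-5p, since bta-miR-199a-3p also comes from that hairpin, gave 1.70, 1.91 and 2.04 in dominant and 1.60, 1.56 and 0.833 in subordinate follicles, the same order of groups. The dominant group was higher in this log2 strand ratio by 0.52, without overlap (exact permutation test, two-sided, p = 0.1, adjusted p = 0.2, the smallest raw p possible being 0.1). The difference was 0.23 without subordinate replicate 3. In the same library bta-miR-199b made up 11.4% of the reads of both 5p names, against 6.14 to 7.49% in the other libraries. The log2 ratio of bta-miR-199b to bta-miR-199a-5p differed by -0.32 between follicle types (exact permutation test, two-sided, p = 0.1, adjusted p = 0.2) and by -0.11 without subordinate replicate 3, and its counting error of 0.42 exceeded its SD of 0.297 over the 6 libraries.

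Ratios of bta-miR-143 and bta-miR-145 to bta-miR-214 were taken in the same way. Bta-miR-143 exceeded bta-miR-214 between 179-fold and 512-fold. The log2 ratio was higher in dominant follicles by 0.60 (exact permutation test, two-sided, p = 0.2, adjusted p = 0.3), and ran from 0.30 without dominant replicate 1 to 0.91 without dominant replicate 2. For bta-miR-145 over bta-miR-214 the difference was 0.85 (exact permutation test, two-sided, p = 0.3, adjusted p = 0.36), and ran from 0.54 without dominant replicate 1 to 1.17 without subordinate replicate 2. In both the libraries of the follicle types overlapped.

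**Figure D3:**
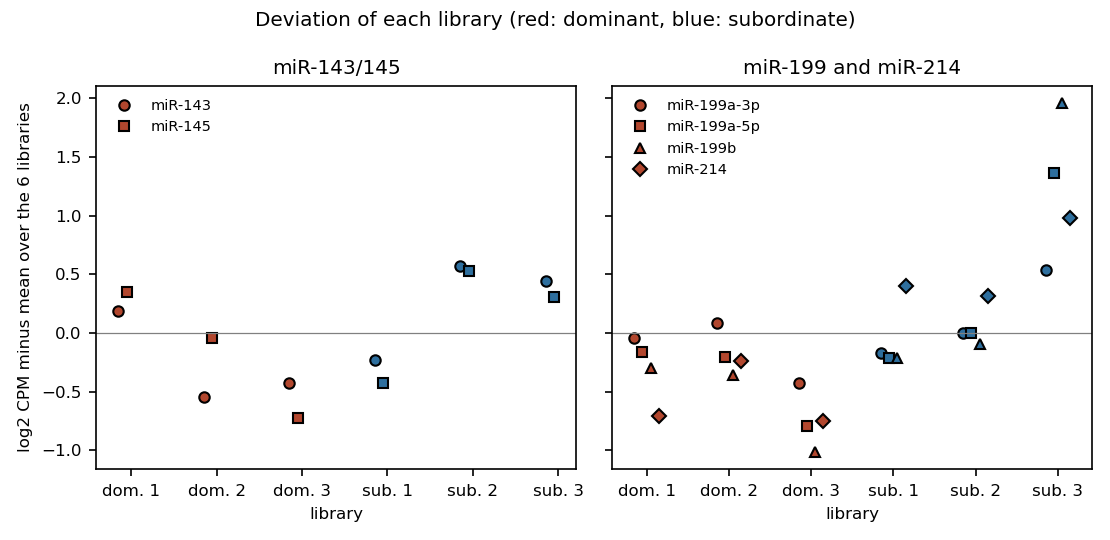
Deviation of log2 CPM from each member's mean over the 6 libraries, bta-miR-143 and bta-miR-145 on the left and the miR-199 and miR-214 names on the right, with dominant libraries in red and subordinate in blue. The pair of miR-143 and miR-145 is highest in subordinate replicate 2, and the others are highest in subordinate replicate 3, by up to 1.96 for bta-miR-199b.

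How the members varied together was described by the SD, over the 6 libraries, of the log2 ratio of 2 miRNAs, which is small when they keep their proportion and which no normalization alters. Over all 5886 pairs of the 109 miRNAs averaging 100 or more reads the median SD was 0.687. It was 0.295 for bta-miR-143 with bta-miR-145, and 11.7% of all pairs had a smaller one. Over all 6 libraries bta-miR-143 was the miRNA most like bta-miR-145 out of 107, and bta-miR-145 was the second most like bta-miR-143, after bta-miR-10a (SD 0.185) and before bta-miR-148a (SD 0.323). The SD of the pair was 0.321 without subordinate replicate 3, and 18.8% of pairs had a smaller one. Bta-miR-143 then took place 2 for bta-miR-145, after bta-miR-199a-5p (SD 0.314), and bta-miR-145 took place 3 for bta-miR-143. Of the 3 nearest miRNAs, 2 for bta-miR-143 and 1 for bta-miR-145 were the same as over all libraries. Both members of the pair were highest in subordinate replicate 2, and their lowest library was dominant replicate 2 for bta-miR-143 and dominant replicate 3 for bta-miR-145.

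For the strands of miR-199a the SD was 0.429, and 26.6% of all pairs had a smaller one. Without subordinate replicate 3 it was 0.157, close to the 0.144 that counting error alone gives over the 6 libraries, and 2.96% of pairs had a smaller one. The proportion of the strands thus varied little among 5 libraries, and the departure lay in the remaining library. Over all libraries each strand went with other miRNAs more closely than with its partner. The miRNAs most like bta-miR-199a-3p were bta-miR-125a (SD 0.138), bta-miR-27b (SD 0.22) and bta-miR-151-5p (SD 0.235). Those most like bta-miR-199a-5p were bta-miR-125b (SD 0.231), bta-miR-99a-5p (SD 0.346) and bta-miR-99b (SD 0.388). With subordinate replicate 3 left out, 1 of the 3 nearest miRNAs was the same for either strand.

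Between the pair of miR-143 and miR-145 and the miR-199a strands the SD over all 6 libraries ran from 0.362, for bta-miR-145 with bta-miR-199a-3p, to 0.59, for bta-miR-145 with bta-miR-199a-5p. Of all pairs, 19.4% and 42.2% had a smaller SD than these. Without subordinate replicate 3 the SD with bta-miR-199a-5p was 0.314 for bta-miR-145 and 0.365 for bta-miR-143, and 17.8% and 24.0% of pairs had a smaller one. With bta-miR-199a-3p it was then 0.384 and 0.441. The distance of bta-miR-199a-5p from the miR-143 and miR-145 pair over all libraries thus rested on that library. Bta-miR-199b and bta-miR-214 had means below 100 reads and were left out of that ranking. These SDs rest on 6 libraries that share their animals and differ in depth, and they carry no test.

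**Figure D4:**
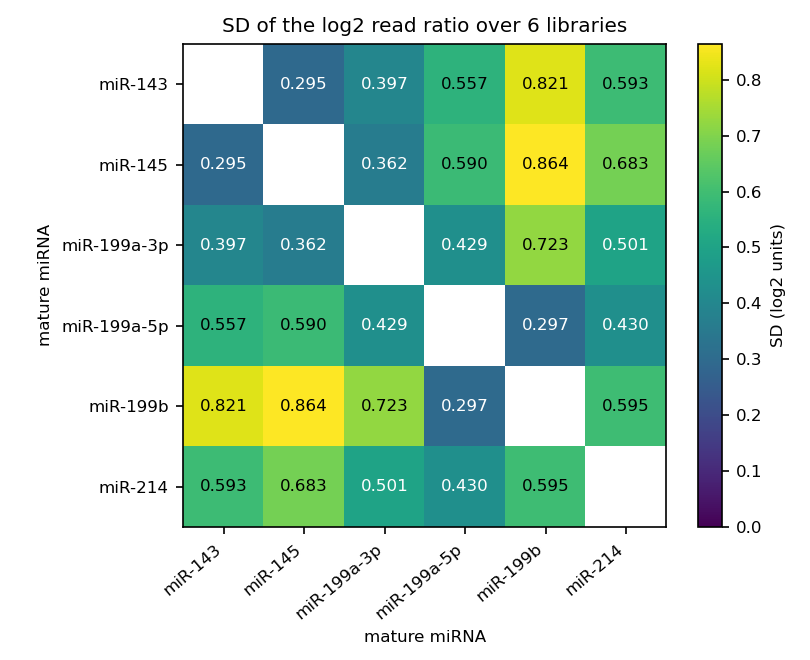
SD over the 6 libraries of the log2 ratio of the read counts (plus 1) of each pair of members, dark where a pair kept its proportion. The smallest values are those of bta-miR-143 with bta-miR-145 (0.295) and of bta-miR-199a-5p with bta-miR-199b (0.297), and the largest is that of bta-miR-145 with bta-miR-199b (0.864).

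A list of miRNAs for other connective tissue, chosen with earlier results of these data known, was also set beside the members. It held bta-miR-140, bta-miR-218, bta-miR-455-5p, bta-miR-455-3p, bta-miR-100, bta-miR-99a-5p and bta-miR-125b. All 7 were tested, and 2 were called lower in dominant follicles and none higher, beside 9.63% of all 353 miRNAs called lower. With so few miRNAs this count does not set the list apart from the rest. Their median log2 fold change was -0.71, beside -0.20 over all miRNAs tested. Summed, the list had between 8461 and 9323 CPM in the dominant libraries and 12290, 13290 and 29320 CPM in the subordinate ones. The highest value was that of subordinate replicate 3, where bta-miR-99a-5p, bta-miR-125b and bta-miR-100 had 3385, 2404 and 1641 reads. Bta-miR-99a-5p and bta-miR-100 are the miRNAs by which that library was set apart above, so the sum is no separate observation. Bta-miR-99b, outside the list, was also highest in subordinate replicate 3, with 19081 reads. Bta-miR-218, bta-miR-455-3p and bta-miR-455-5p had only 2, 6 and 2 reads there and were not highest in it. The called miRNAs were bta-miR-100, with 171, 115 and 177 reads in dominant and 363, 298 and 1641 in subordinate follicles, and bta-miR-99a-5p. Their log2 fold changes were -2.20 (adjusted p = 0.042 from edgeR) and -1.39 (adjusted p = 0.0464 from edgeR), and became -0.84 (adjusted p = 0.0149 from edgeR) and -0.65 (adjusted p = 0.0467 from edgeR) without that library. Neither then reached the minimum fold change. Bta-miR-140, known from cartilage, had a log2 fold change of -0.61 (adjusted p = 0.0469 from edgeR), below the minimum, and was not raised in subordinate replicate 3.

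MiRNAs of other cells that a follicle can contribute were counted in the same libraries. The endothelial miRNAs, bta-miR-126-5p and bta-miR-126-3p, had 44, 26 and 10 and 39, 17 and 13 reads in dominant follicles, and 70, 62 and 91 and 50, 57 and 62 reads in subordinate follicles. Their log2 fold changes of -1.25 (adjusted p = 0.113 from edgeR) and -1.09 (adjusted p = 0.105 from edgeR) lay just short of the threshold. Summed, they stood at 73.2 to 293 CPM in dominant and 354 to 540 CPM in subordinate follicles. Of the red blood cell miRNAs 2 of 3 were called higher in dominant follicles, beside 42 of all 353 miRNAs tested. The summed levels of the 3 were 13090, 8247 and 1048 CPM against 808 to 1530 CPM. Dominant replicate 3 lay within the subordinate range. The called ones were bta-miR-451, with a log2 fold change of 3.00 (adjusted p = 0.0414 from edgeR), and bta-miR-486, with 2.45 (adjusted p = 0.0417 from edgeR). Without subordinate replicate 3 they were at 2.73 (adjusted p = 0.123 from edgeR) and 2.21 (adjusted p = 0.127 from edgeR), and 0 of the 3 passed. Of the 5 white blood cell miRNAs 4 were tested and none was called, at 1610 to 2403 CPM in dominant and 854 to 2029 CPM in subordinate libraries. Of the 6 epithelial miRNAs 1 was tested and not called, with at most 10 reads for the whole list in a library. Of the 8 striated muscle miRNAs 7 were listed and 3 tested, with none called and at most 13 reads in a library. Bta-miR-205, bta-miR-133b, bta-miR-206 and bta-miR-208a had no read in any library. The part of any of these cells in the members' levels was not tested.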

How the data were processed

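The authors pooled granulosa cell RNA into 3 libraries for each follicle type. The deposited values are raw read counts, in 906 rows of mature miRNA and hairpin. The authors called bases with CASAVA 1.8.0, trimmed and filtered reads with Cutadapt and Seqtk, mapped them with Bowtie (UMD3.1 in the submitters' processing notes) and counted them on miRBase miRNAs with miRDeep2.

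The largest row of each name was used, so that depth was 190385 to 364125 reads a library. The 353 detected names were tested with edgeR 4.0.16 (R 4.3.3), using TMM factors, a quasi-likelihood fit on follicle type alone and Benjamini-Hochberg adjustment. The standard error was taken as the size of the log2 fold change over the root of F. Ratios used counts plus 1, with two-sided exact permutation tests adjusted over 6 ratios (Python 3.11.15, scipy 1.17.1). On simulated data with 200 of 352 miRNAs changed by 2 on the log2 scale the test found 77.5% of them, with 1.9% of calls false. The members' log2 fold changes, from -1.52 to -0.26, were smaller, so the share found does not carry over to them. The share of false calls also depends on how many miRNAs were changed.

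Groups and replicate numbers came from the labels. All replicate pairs differed beyond sampling noise (chi-square per degree of freedom 18.9 to 99.3). Deviations over 194 miRNAs were correlated between same-numbered libraries (r = 0.136, 0.378 and 0.408) and between libraries with different numbers (r = -0.416 to 0.193). The value of 0.136, for replicate 1, lay within the range for different numbers, and the other same-numbered values lay above it. Because of those higher values the replicate number was also fitted as a block. The labels do not say what a number shares. Libraries from shared animals may not be independent. Sharing within a group can make p-values too small, and sharing across the compared groups can make them too large.

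Members and lists were chosen with earlier results of these data known. Named beside the members were the marker lists and, for each member averaging 100 reads or more, the 3 miRNAs most like it. Alternatives were DESeq2 1.42.0 (the authors' tool), other size factors, filters and thresholds, summed rows, the block and each library left out. Leaving out bta-miR-199c, using its own hairpin only, leaving subordinate replicate 3 out of SDs and lists, and joining both 5p names were added after seeing the data.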

Additional observations from a re-analysis of the deposited data

How the results depend on the processing

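All members kept a log2 fold change below 0 in all 98 values over 15 alternative fits. These values count bta-miR-199c beside bta-miR-199a-3p and all draw on the same 6 libraries, so they are not separate observations. Some were close to 0, such as -0.01 for bta-miR-145 with total count and -0.03 for bta-miR-199a-3p without subordinate replicate 3. The number of members called moved from 1 to 0 with total count and no composition factor, and ran from 0 to 3 when a single library was left out: 0 without dominant replicate 1 or subordinate replicate 3, and 3 without subordinate replicate 1. With the replicate block 1 member was called and 71 miRNAs in all, against 76, and the block changed no member's call (bta-miR-214 at -1.19, adjusted p = 0.0585 from edgeR with the block). DESeq2 called 68 miRNAs and the same single member, bta-miR-214 at -1.22 (adjusted p = 0.0422 from DESeq2). Without the fold change minimum 107 miRNAs and 1 member passed. When 1 library was left out, the log2 fold change of bta-miR-214 ran from -1.36 to -0.96, that of bta-miR-143 from -0.79 to -0.35, that of bta-miR-199a-5p from -1.20 to -0.26 and that of bta-miR-145 from -0.53 to -0.02. All 6 ratios between members kept their sign under every alternative run. For the block this had to be so, as the blocked difference equals the unblocked one. Ratios whose groups did not overlap also could not change sign when 1 library was left out. On its own hairpin only, bta-miR-199c had a log2 fold change of -0.55 (adjusted p = 0.356 from edgeR). The share of pairs with a smaller SD moved without subordinate replicate 3, from 11.7 to 18.8% for bta-miR-143 with bta-miR-145. Members with 7 to 56 reads a library, bta-miR-199b and bta-miR-214, are limited most by depth, and the cause of the changes with single libraries was not tested.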
